A study of Arabidopsis thaliana and Brassica rapa with 28 samples.

Results

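Stomata are pores in the shoot epidermis, each opened and closed by a pair of guard cells. A short series of transcription factors (SPCH, MUTE, FAMA) takes an epidermal cell through the lineage, secreted peptides and a receptor protein set how many cells enter it and where, and ion channels of the finished guard cell move potassium and so change its volume. Under leaves red light is scarce relative to far-red, which plants read as shade, and auxin is a main signal in the growth response to it. The 10 genes were chosen by locus: SPCH, MUTE, FAMA, EPF2, EPF1, STOMAGEN, TMM, SDD1, KAT1 and MYB60, which are 10 of the 33543 genes in the Arabidopsis tables.

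RNA was sequenced from whole Arabidopsis thaliana seedlings, 5 d old, that had been raised under continuous white (W) light on agar plates and then kept for 4 h in shade or in W. CER6pro>>axr3-1::mCit seedlings express axr3-1, a stabilised form of the auxin-response repressor AXR3/IAA17 fused to a fluorescent protein, from the promoter of the epidermal wax gene CER6, and their controls were hemizygous for the UAS::axr3-1::mCit construct that both genotypes thus carry. The 4 groups were CER6pro>>axr3-1::mCit in shade, CER6pro>>axr3-1::mCit in W, control in shade and control in W, with 4 libraries each and 16 in all. The labels do not say whether these libraries came from separate sets of plants, so the p-values measure the spread between these libraries only.

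Each group has 1 pooled value per gene in FPKM (fragments scaled to transcript length and library size), made by the authors with Cuffdiff, so an SD within a group and the depth of a library are unknown. Between 19982 and 20097 genes had at least 1 FPKM in a group, and all 10 stomatal genes did so in each of the 4 groups and were tested in all 6 comparisons. AXR3 itself had 112 and 113 FPKM in CER6pro>>axr3-1::mCit seedlings in shade and in W, against 37.1 and 47.1 FPKM in control seedlings in shade and in W, and reads of the transgene and of the native gene cannot be told apart. In whole seedlings, fewer cells of a type and less RNA per cell cannot be told apart either. A gene is called here where the q-value of the authors' deposited table is under 0.05. Log2 folds are of group FPKMs, with a standard error (SE) derived from the authors' statistic. Where both values of a genotype are said to lie below or above both of the other, these are pooled values and not libraries. The share of all genes ordered in this way was not computed.

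The stretch of 250 bases before the RefSeq start is shown for 3 genes (TAIR10.1 assembly, 5′ to 3′ on the strand of the gene): KAT1, the 1 of the 10 genes that was called, KAT2, its closest relative among the guard cell potassium channels, and MUTE, which has the lowest shade fold of the 10 in CER6pro>>axr3-1::mCit seedlings. Capitals mark the G-box CACGTG in KAT1 and KAT2, a binding motif of several light-signalling transcription factors, and in MUTE they mark GAGACA, the reverse complement of the auxin response element TGTCTC. The windows are chr5:18747407-18747656 (minus strand) for KAT1, chr4:10114544-10114793 (plus strand) for KAT2 and chr3:1846192-1846441 (plus strand) for MUTE.
KAT1: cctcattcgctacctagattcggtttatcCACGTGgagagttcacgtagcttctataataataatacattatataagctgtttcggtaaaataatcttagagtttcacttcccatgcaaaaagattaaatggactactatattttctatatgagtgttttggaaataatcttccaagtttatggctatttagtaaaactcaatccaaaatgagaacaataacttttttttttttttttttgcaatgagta
KAT2: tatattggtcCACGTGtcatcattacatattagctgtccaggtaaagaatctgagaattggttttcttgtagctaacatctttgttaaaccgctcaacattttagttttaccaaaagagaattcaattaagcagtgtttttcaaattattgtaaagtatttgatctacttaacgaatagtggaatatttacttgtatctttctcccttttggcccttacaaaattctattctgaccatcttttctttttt
MUTE: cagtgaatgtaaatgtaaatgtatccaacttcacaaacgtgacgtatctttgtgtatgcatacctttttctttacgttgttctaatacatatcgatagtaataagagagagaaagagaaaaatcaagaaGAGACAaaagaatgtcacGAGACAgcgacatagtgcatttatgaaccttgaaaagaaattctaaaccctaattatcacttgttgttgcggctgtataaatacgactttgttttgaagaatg

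The G-box was found in 1 of the 10 windows, that of KAT1, where it begins at base -221, and in the KAT2 window it begins at base -240. It occurs in 6.49% of the 27443 windows of the same length before annotated genes, both strands searched. The auxin response element TGTCTC was found in 2 of the 10 windows, with 2 matches in MUTE and 1 in STOMAGEN, against 10.9% of all windows with at least 1 match and 0.849% with 2 or more. The string TAAAG is 1 form of the Dof motif, bound by a transcription factor family with members in guard cells. It was found in 8 of the 10 windows, all but those of KAT1 and MYB60, against 58.8% of all windows. The shorter Dof core AAAG was not counted, and the KAT1 window does hold AAAG, so these counts do not show that a gene lacks Dof motifs. CACGTG is its own reverse complement and was counted once, and its last letters are the first of TGTCTC, so these motifs can overlap. A match is a string of letters and not a proven site. The RefSeq start lies 237 bases before the start given in the files for KAT1, 624 bases before it for KAT2 and 84 bases before it for MUTE.

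KAT1 had the highest mean over the 4 groups at 24.9 FPKM and MUTE the lowest at 1.84 FPKM. Between them, in falling order of mean FPKM, stood MYB60 (22.7), STOMAGEN (18.3), FAMA (12.6), SPCH (9.35), TMM (9.26), EPF2 (6.72), EPF1 (3.78) and SDD1 (2.39). The 4-group ranges overlapped for the neighbours KAT1 and MYB60, MYB60 and STOMAGEN, SPCH and TMM, TMM and EPF2, and SDD1 and MUTE, so the order within these pairs is not fixed. The ranges were apart for STOMAGEN and FAMA, FAMA and SPCH, EPF2 and EPF1, and EPF1 and SDD1. Only neighbours were compared here, and the KAT1 range, 11.3 to 44.6 FPKM, also spans those of STOMAGEN and FAMA. In W, KAT1 lay below MYB60 and STOMAGEN in both genotypes. Among the 23259 genes above 0 in all 4 groups, 74.4% lay below KAT1 and 19.5% below MUTE. No member overlaps another annotated gene, and no 50-base window of the longest transcript of any member occurs elsewhere in the genome.

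**Figure D1:**
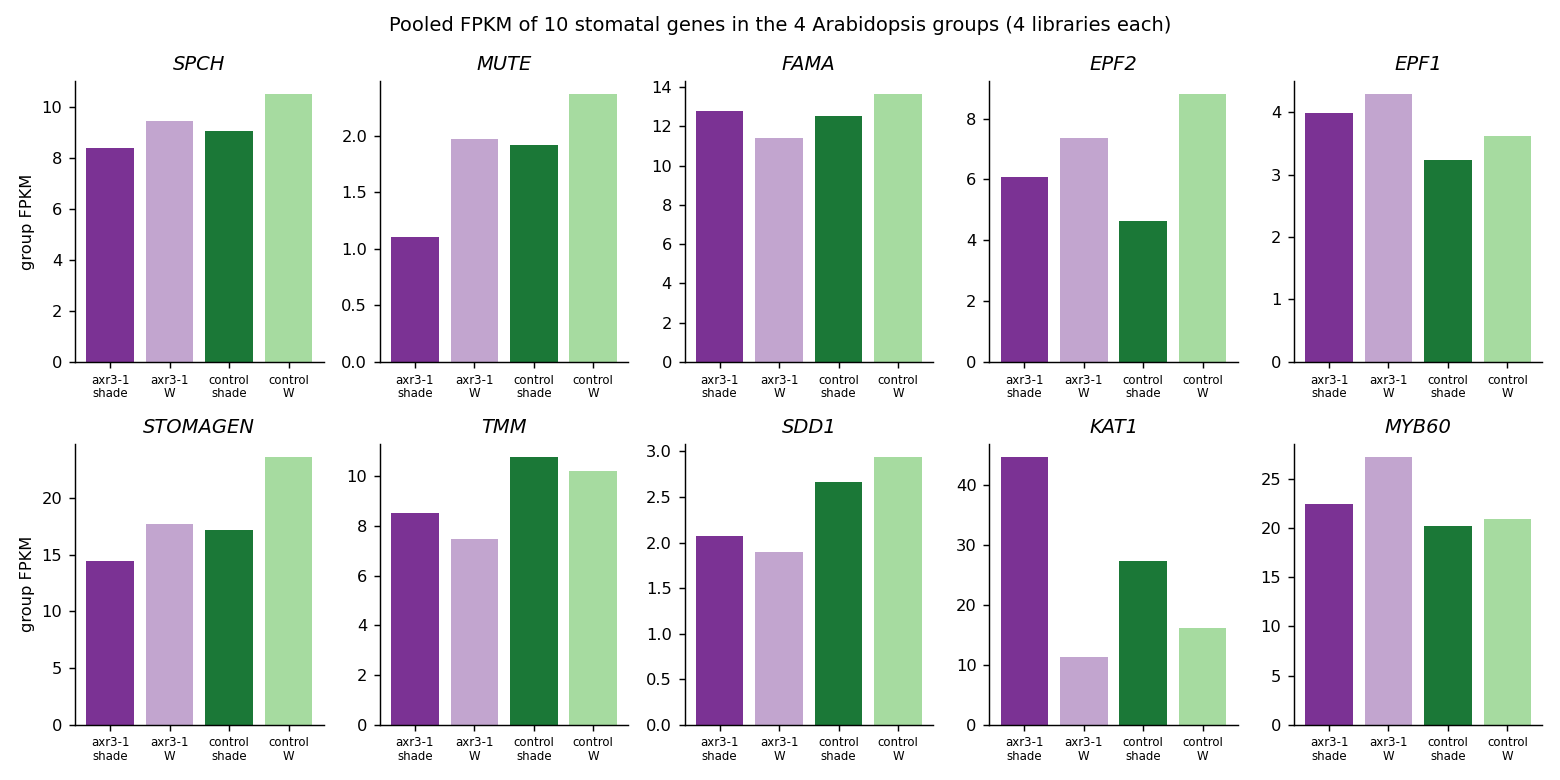
Pooled FPKM (y axes, each from 0) of the 10 genes in the 4 Arabidopsis groups, with 4 libraries behind each bar and no error bars because the values are pooled. KAT1 stands at 44.6 FPKM in CER6pro>>axr3-1::mCit seedlings in shade and at 11.3 FPKM in W, while the bars of SPCH, FAMA and EPF1 differ little.

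The 3 transcription factors of the lineage were not called in any of the 6 comparisons. SPCH (AT5G53210, chr5:21586606-21589015, minus strand), the bHLH factor that starts the lineage, had 8.39 and 9.46 FPKM in CER6pro>>axr3-1::mCit seedlings in shade and in W, and 9.04 and 10.5 FPKM in control seedlings in shade and in W. Its values in shade lay below those in W in both genotypes, by a small margin. The log2 folds of SPCH in the 6 comparisons lay between -0.32 and 0.07.

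MUTE (AT3G06120, chr3:1846526-1848230, plus strand), which ends the asymmetric divisions and makes the guard mother cell, had 1.11 and 1.97 FPKM in CER6pro>>axr3-1::mCit seedlings in shade and in W. In control seedlings it had 1.92 and 2.37 FPKM in shade and in W. The CER6pro>>axr3-1::mCit group in shade was thus the lowest and the other 3 groups lay close together. The log2 fold of shade over W was -0.83 ± 0.43 (SE) in CER6pro>>axr3-1::mCit seedlings (p = 0.150 in the authors' deposited table) and -0.30 ± 0.39 in control seedlings (p = 0.548 in the authors' deposited table). The furthest pair of groups, CER6pro>>axr3-1::mCit in shade over control in W, gave -1.10 ± 0.43, with q = 0.548 in the authors' deposited table. That pair was not called.

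FAMA (AT3G24140, chr3:8715236-8718211, minus strand, listed as FMA), which acts at the last division and promotes the guard cell fate, had 12.8 and 11.4 FPKM in CER6pro>>axr3-1::mCit seedlings in shade and in W, and 12.5 and 13.6 FPKM in control seedlings in shade and in W. Its shade folds had opposite signs in the genotypes, 0.16 ± 0.22 in CER6pro>>axr3-1::mCit and -0.12 ± 0.22 in control seedlings, both within 1 SE of 0. ICE1 and SCRM2 encode the bHLH partners of all 3 factors. ICE1 was level, at 20.1 and 20.6 FPKM in CER6pro>>axr3-1::mCit seedlings in shade and in W, against 21.4 and 21.5 FPKM in control seedlings in shade and in W. SCRM2 had 20.5 and 20.9 FPKM in CER6pro>>axr3-1::mCit seedlings in shade and in W, against 25.1 and 30.6 FPKM in control seedlings in shade and in W. Both SCRM2 values of the CER6pro>>axr3-1::mCit seedlings lay below both control values, yet its log2 fold in W of -0.55 ± 0.18 was not called (q = 0.225 in the authors' deposited table).

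Of the secreted signals, EPF2 and EPF1 restrict stomata and STOMAGEN, made by the mesophyll below, promotes them. None was called. EPF2 (AT1G34245, chr1:12472868-12473754, plus strand), which limits entry into the lineage, had 6.08 and 7.37 FPKM in CER6pro>>axr3-1::mCit seedlings in shade and in W, and 4.64 and 8.80 FPKM in control seedlings in shade and in W. The control groups were the lowest and the highest of the 4. The log2 fold of shade over W was -0.28 ± 0.30 in CER6pro>>axr3-1::mCit seedlings and -0.92 ± 0.30 in control seedlings (p = 0.0225 and q = 0.340 for control in the authors' deposited table). The difference of these folds, CER6pro>>axr3-1::mCit minus control, was 0.65 ± 0.43, which a two-sided z test on the authors' statistics did not call (adjusted p = 1.00 over 19990 genes).

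EPF1 (AT2G20875, chr2:8983074-8983703, minus strand), which acts on spacing at a later step, had 3.98 and 4.28 FPKM in CER6pro>>axr3-1::mCit seedlings in shade and in W, and 3.24 and 3.61 FPKM in control seedlings in shade and in W. Both control values lay below both CER6pro>>axr3-1::mCit values, but its folds between the genotypes, 0.24 ± 0.35 in W and 0.30 ± 0.37 in shade, were within 1 SE of 0. STOMAGEN (AT4G12970, chr4:7586124-7586943, minus strand) had 14.5 and 17.7 FPKM in CER6pro>>axr3-1::mCit seedlings in shade and in W, and 17.2 and 23.6 FPKM in control seedlings in shade and in W. It was lower in shade than in W in both genotypes, with log2 folds of -0.29 ± 0.30 in CER6pro>>axr3-1::mCit and -0.46 ± 0.28 in control seedlings, neither of them called. CER6pro>>axr3-1::mCit in shade over control in W gave -0.71 ± 0.29 for STOMAGEN, with p = 0.0326 and q = 0.430 in the authors' deposited table.

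TMM (AT1G80080, chr1:30128005-30129592, minus strand) encodes the receptor-like protein that modulates the response to the peptides. It had 8.54 and 7.47 FPKM in CER6pro>>axr3-1::mCit seedlings in shade and in W, and 10.8 and 10.2 FPKM in control seedlings in shade and in W. Both values in CER6pro>>axr3-1::mCit seedlings lay below both control values, and light made little difference within a genotype. The log2 folds of CER6pro>>axr3-1::mCit over control were -0.45 ± 0.25 in W (p = 0.0685 in the authors' deposited table) and -0.34 ± 0.25 in shade (p = 0.164 in the authors' deposited table), and neither was called. ER, ERL1 and ERL2 encode the kinase receptors that work with TMM. ER had 35.5 and 28.9 FPKM in CER6pro>>axr3-1::mCit seedlings in shade and in W, against 45.7 and 39.7 FPKM in control seedlings in shade and in W. ERL1 lay between 2.42 and 2.79 FPKM and ERL2 between 7.13 and 9.86 FPKM over the 4 groups, and none of the 3 was called in any comparison.

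SDD1 (AT1G04110, chr1:1061457-1063784, minus strand), a subtilisin-like protease that limits stomatal number, had 2.08 and 1.90 FPKM in CER6pro>>axr3-1::mCit seedlings in shade and in W, and 2.66 and 2.94 FPKM in control seedlings in shade and in W. As for TMM, both CER6pro>>axr3-1::mCit values lay below both control values. The log2 folds of CER6pro>>axr3-1::mCit over control were -0.63 ± 0.34 in W (p = 0.0529 and q = 0.565 in the authors' deposited table) and -0.36 ± 0.34 in shade.

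KAT1 (AT5G46240, chr5:18743566-18747169, minus strand), an inward potassium channel of the guard cell membrane, was the 1 gene of the 10 that was called. The gene has 9 exons and a coding length of 2034 bases in RefSeq. It had 44.6 and 11.3 FPKM in CER6pro>>axr3-1::mCit seedlings in shade and in W, and 27.3 and 16.2 FPKM in control seedlings in shade and in W. Both shade values were above both W values, and the CER6pro>>axr3-1::mCit groups were the highest and the lowest of the 4. In CER6pro>>axr3-1::mCit seedlings KAT1 rose 3.93-fold in shade, a log2 fold of 1.98 ± 0.31 (95% interval 1.36 to 2.59, q = 0.00309 in the authors' deposited table). It ranked 35th by size among the 155 genes called higher with a finite fold in that comparison. In control seedlings the log2 fold of shade over W was 0.75 ± 0.31 (p = 0.0424 and q = 0.501 in the authors' deposited table), so it was not called.

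Whether the shade response of KAT1 differs between the genotypes is a question of its own. The difference of the log2 folds, CER6pro>>axr3-1::mCit minus control, was 1.22 ± 0.44 (95% interval 0.36 to 2.08). The two-sided z test, built on the statistics the authors deposited, gave p = 0.00543 before and 0.445 after adjustment over 19990 genes, so a difference was not established. That test called 124 of the 19990 genes, or 0.62%, and 0 of the 10 stomatal genes. At an unadjusted p under 0.05 it took 1 of the 10, KAT1, against 2.66% of all genes. With the SE taken from p instead of the statistic, the z test called 2 genes in all and 0 of the 10. The share of 0.62% thus depends on the SE used. Between the genotypes within a light condition KAT1 was not called either. Set against control seedlings, CER6pro>>axr3-1::mCit seedlings gave a log2 fold of -0.51 ± 0.34 in W and of 0.71 ± 0.29 in shade (q = 0.999 and 0.381 in the authors' deposited table). In the comparisons that change genotype and light together, KAT1 rose by 1.46 ± 0.31 on the log2 scale in CER6pro>>axr3-1::mCit in shade over control in W (q = 0.0121 in the authors' deposited table). It fell by 1.27 ± 0.31 in CER6pro>>axr3-1::mCit in W over control in shade (q = 0.0160 in the authors' deposited table). The 6 comparisons are drawn from 4 groups and share libraries, so the calls of KAT1 are not independent of one another.

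KAT2 (AT4G18290, chr4:10115418-10118647, plus strand), the closest relative of KAT1 and also a guard cell potassium channel, had another profile. It had 7.77 and 11.0 FPKM in CER6pro>>axr3-1::mCit seedlings in shade and in W, and 8.78 and 6.87 FPKM in control seedlings in shade and in W. The group in which KAT1 was lowest, CER6pro>>axr3-1::mCit in W, was the one in which KAT2 was highest. The log2 folds of shade over W for KAT2 were -0.50 ± 0.24 in CER6pro>>axr3-1::mCit and 0.35 ± 0.24 in control seedlings (q = 0.430 and 0.904 in the authors' deposited table). Their difference of -0.86 ± 0.34 was not called in the same z test on the authors' statistics (adjusted p = 0.736). The 19274 genes with at least 1 FPKM in all 4 groups were ordered by the Euclidean distance of their centred log2 FPKM to that of KAT1. The 3 nearest genes with a symbol were taken, and any nearer gene without a symbol was passed over. These were MIR171b (AT1G11735, distance 0.161), CYS2 (AT2G31980, distance 0.405) and HB4 (AT2G44910, distance 0.458).

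CYS2, a cysteine protease inhibitor gene, had 13.3 and 2.62 FPKM in CER6pro>>axr3-1::mCit seedlings in shade and in W, against 8.83 and 3.93 FPKM in control seedlings in shade and in W. HB4, a homeodomain-leucine zipper gene known to respond to shade, had 5.27 and 1.63 FPKM in CER6pro>>axr3-1::mCit seedlings in shade and in W, against 5.01 and 2.22 FPKM in control seedlings in shade and in W. Their shade folds in CER6pro>>axr3-1::mCit seedlings were 2.35 ± 0.32 and 1.69 ± 0.42 (q = 0.00309 and 0.0178 in the authors' deposited table). In control seedlings they were 1.17 ± 0.29 and 1.17 ± 0.39 (q = 0.145 and 0.104 in the authors' deposited table). The MIR171b locus, which encodes a microRNA, was not tested by the authors, and since these genes were picked for their likeness to KAT1 over 4 values, their shared pattern is a description only.

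**Figure D2:**
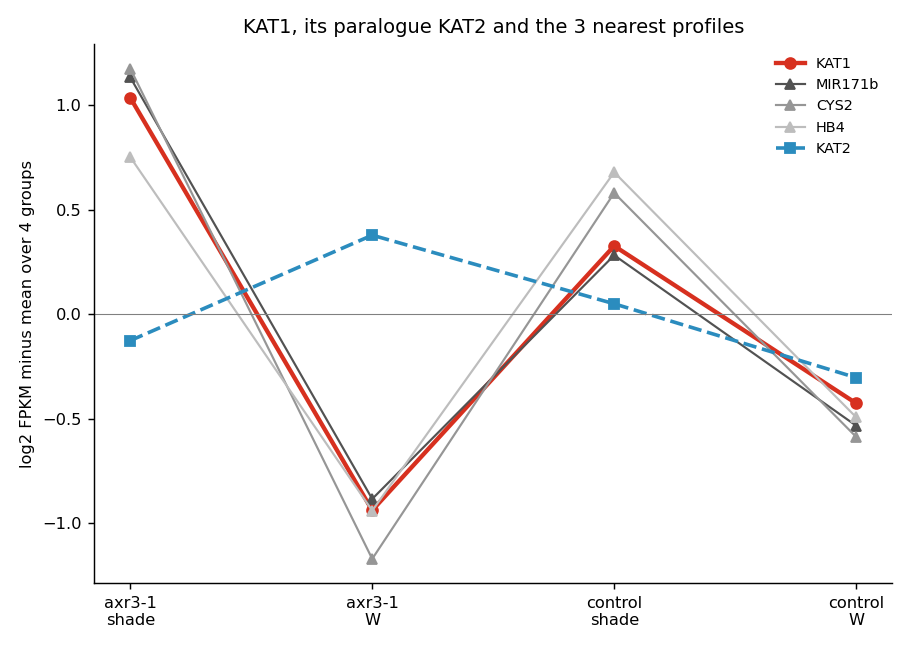
Log2 FPKM less its mean over the 4 groups (y axis) for KAT1, KAT2 and the 3 genes with a symbol nearest to KAT1 in profile (lines join the 4 groups of each gene, on the x axis). KAT1 lies at 1.04 in CER6pro>>axr3-1::mCit in shade and at -0.94 in CER6pro>>axr3-1::mCit in W, where KAT2 lies at -0.13 and 0.38.

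MYB60 (AT1G08810, chr1:2819063-2820395, minus strand), a guard cell transcription factor that promotes opening, had 22.5 and 27.2 FPKM in CER6pro>>axr3-1::mCit seedlings in shade and in W, and 20.2 and 21.0 FPKM in control seedlings in shade and in W. Both CER6pro>>axr3-1::mCit values were above both control values. None of its comparisons was called, and its log2 fold of CER6pro>>axr3-1::mCit over control in W was 0.38 ± 0.23 (p = 0.117 in the authors' deposited table). MYB61, a related factor that promotes closure, had 2.81 and 1.86 FPKM in CER6pro>>axr3-1::mCit seedlings in shade and in W, against 2.30 and 2.04 FPKM in control seedlings in shade and in W, and was not called.

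Over the set as a whole, shade called 1 of the 10 genes, KAT1, in CER6pro>>axr3-1::mCit seedlings, where 2.52% of the 20441 tested genes were called, and an unadjusted p under 0.05 took KAT1 alone, against 8.15% of genes. In control seedlings shade called 0 of 10, where 2.85% of tested genes were called, and at an unadjusted p under 0.05 it took 2 of 10, KAT1 and EPF2, against 8.57% of genes. CER6pro>>axr3-1::mCit against control called 0 of 10 in W, where 2.16% of genes were called, and at an unadjusted p under 0.05 took 0 of 10 against 8.09%. The same contrast in shade called 0 of 10, where 1.25% of genes were called, and at an unadjusted p under 0.05 took KAT1, 1 of 10, against 4.95%. CER6pro>>axr3-1::mCit in shade against control in W called 1 of 10, where 4.75% of genes were called, and at an unadjusted p under 0.05 took 2 of 10, KAT1 and STOMAGEN, against 13.3%. CER6pro>>axr3-1::mCit in W against control in shade called 1 of 10, where 3.94% of genes were called, and at an unadjusted p under 0.05 took 2 of 10, KAT1 and TMM, against 11.6%. With 10 genes and these shares, a count of 0 or 1 lies near the background, and nothing about the set is read from it.

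Most of the 10 genes had small shade folds. In shade 6 of the 10 genes were below W in both genotypes (SPCH, MUTE, EPF2, EPF1, STOMAGEN and MYB60), 2 were above W in both (TMM and KAT1), and FAMA and SDD1 differed in sign. None of the 6 was called for shade in either genotype. The share of all tested genes below W in both genotypes was not computed, so nothing about the set is read from these counts. The median log2 fold of the 10 for shade over W was -0.14 in CER6pro>>axr3-1::mCit and -0.15 in control seedlings, with 6 and 8 of 10 below 0, against 46.7% and 49.3% of all tested genes below 0. For CER6pro>>axr3-1::mCit over control the median of the 10 was -0.26 in W, with 8 of 10 below 0 against 48.9% of all tested genes, and -0.04 in shade, with 5 of 10 below 0. The medians of all tested genes lay between 0.004 and 0.02 in these 4 comparisons. Among tested genes whose mean FPKM lay within the range of the 10, the smallest log2 fold called in any comparison was 0.655 in size, and most differences among the 10 were below it. The median size of the called folds was 1.25 to 1.34, depending on the comparison. Some folds of the 10 above 0.655 in size were not called, among them EPF2 at -0.92 for shade in control seedlings.

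**Figure D3:**
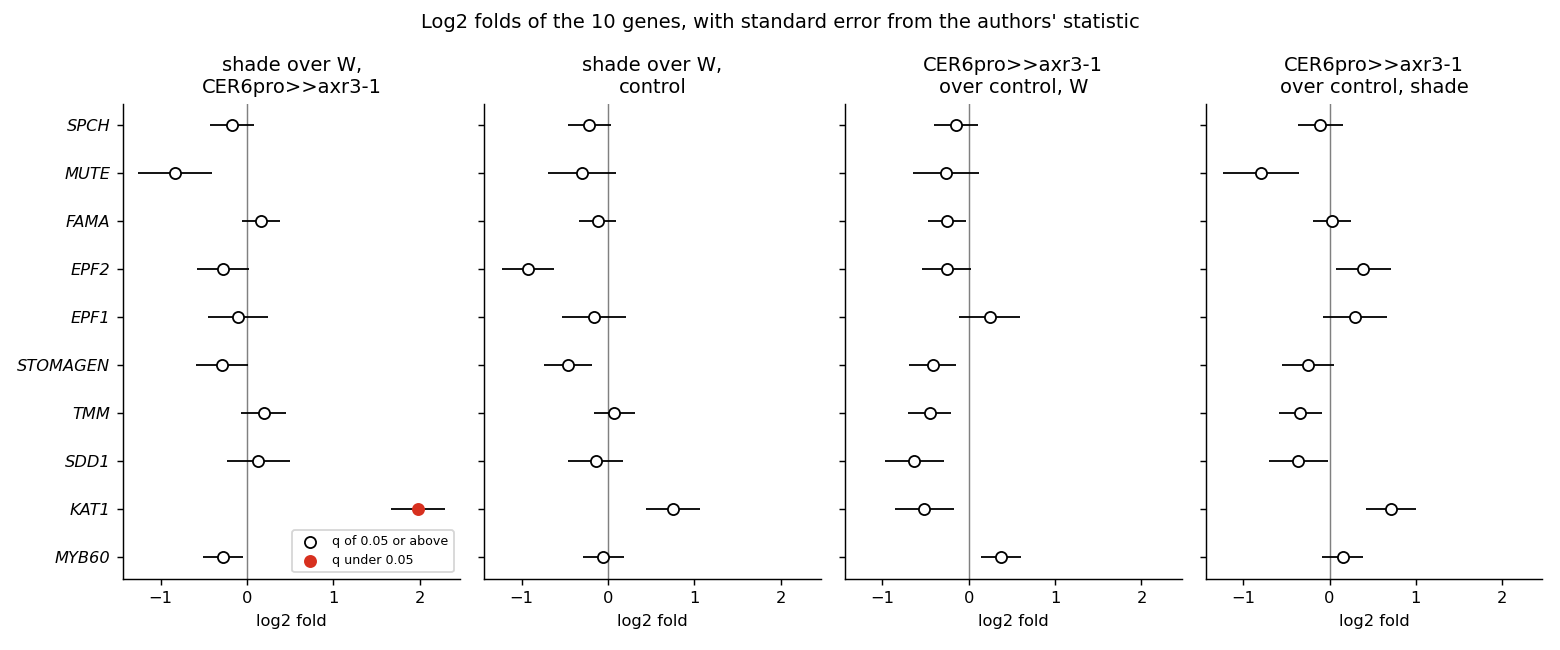
Log2 folds (x axes) of the 10 genes in 4 comparisons, with bars of 1 SE from the authors' statistic. KAT1 at 1.98 for shade over W in CER6pro>>axr3-1::mCit seedlings is the 1 filled point (q under 0.05), and the lowest point of the same panel is MUTE at -0.83.

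The epidermis is the tissue in which stomata form, and its markers are given beside the stomatal genes. Of the 6 epidermal genes chosen as markers, 1 was called in CER6pro>>axr3-1::mCit over control in W, where 2.16% of all tested genes were called. The 6 genes ATML1, PDF1, PDF2, FDH, CER6 and CER5 were all below control in CER6pro>>axr3-1::mCit seedlings in W, from FDH at -0.15 ± 0.24 to PDF1, with a median log2 fold of -0.44, where 8 of the 10 stomatal genes and 48.9% of all tested genes were below 0. PDF1, a gene of the outermost cell layer, had 285 and 202 FPKM in CER6pro>>axr3-1::mCit seedlings in shade and in W, against 394 and 411 FPKM in control seedlings in shade and in W. It fell by 1.03 ± 0.27 on the log2 scale in CER6pro>>axr3-1::mCit over control in W and is the 1 marker called there (q = 0.00793 in the authors' deposited table). In CER6pro>>axr3-1::mCit over control in shade, 3 of the 6 were below 0, with a median of -0.10 and 0 called, against 47.3% of all tested genes below 0. For shade over W in control seedlings the 6 were all below 0, with a median of -0.32 and 0 called, against 49.3% of all tested genes. For shade over W in CER6pro>>axr3-1::mCit seedlings 3 of 6 were below 0, against 46.7% of all tested genes. The part of these epidermal values in the stomatal values was not tested.

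Among 23 other genes of stomatal development (receptors, kinases, polarity proteins, peptides and proteases), 0 were called for shade in CER6pro>>axr3-1::mCit or in control seedlings, and 0 for CER6pro>>axr3-1::mCit against control in W or in shade. Of all tested genes 2.52%, 2.85%, 2.16% and 1.25% were called in these comparisons, so a count of 0 in 23 lies near the background. The lowest and highest log2 folds for shade over W were HDG2 at -0.39 ± 0.26 and EPFL5 at 1.98 ± 0.56 in CER6pro>>axr3-1::mCit seedlings, and HDG2 at -0.48 ± 0.26 and CHAL at 0.89 ± 0.41 in control seedlings. HDG2 is an epidermal homeodomain factor, and EPFL5 and CHAL are peptides of the EPF family. For CER6pro>>axr3-1::mCit over control they were EPFL5 at -2.14 ± 0.54 and CRSP at 0.50 ± 0.28 in W, and EPFL5 at -0.96 ± 0.41 and CRSP at 0.46 ± 0.25 in shade. EPFL5 is a gene of low level, with 2.28 and 0.578 FPKM in CER6pro>>axr3-1::mCit seedlings in shade and in W, against 4.44 and 2.55 FPKM in control seedlings in shade and in W. An SE taken from p would be 1.53 times as large for shade in CER6pro>>axr3-1::mCit seedlings and 1.62 times for genotype in W. These folds of EPFL5 did not pass the test (q = 0.329 for shade in CER6pro>>axr3-1::mCit and 0.262 for genotype in W in the authors' deposited table).

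CRSP, a secreted protease that cleaves EPF2, had 9.63 and 6.48 FPKM in CER6pro>>axr3-1::mCit seedlings in shade and in W, against 7.01 and 4.58 FPKM in control seedlings in shade and in W. The highest and the lowest of these were the groups that differ in both genotype and light. CRSP was the 1 development gene of the 23 called in such a comparison, at 1.07 ± 0.27 in CER6pro>>axr3-1::mCit in shade over control in W (q = 0.00564 in the authors' deposited table). In that comparison 4.75% of all tested genes were called, and POLAR, a polarity protein gene, was the lowest of the 23 at -0.72 ± 0.33. In CER6pro>>axr3-1::mCit in W over control in shade the 23 ran from EPFL5 at -2.94 ± 0.53, with an SE 1.85 times as large if taken from p, to HDG2 at 0.64 ± 0.26, with 0 called. Of all tested genes 3.94% were called there, so counts of 0 or 1 in 23 lie near the background.

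Among 23 other genes of guard cell function (channels, pumps, kinases, transporters and photoreceptors), 2 were called for shade in CER6pro>>axr3-1::mCit seedlings and 1 in control seedlings, all higher in shade, where 2.52% and 2.85% of all tested genes were called. CER6pro>>axr3-1::mCit against control called 1 of the 23 in W and 1 in shade, where 2.16% and 1.25% of all tested genes were called. These counts are small, and nothing about the list is read from them. PHOT1, a blue-light receptor for opening and for phototropism (listed as NPH1), rose in shade in both genotypes. It had 125 and 62.2 FPKM in CER6pro>>axr3-1::mCit seedlings in shade and in W, and 155 and 73.6 FPKM in control seedlings in shade and in W. Its shade folds of 1.01 ± 0.26 in CER6pro>>axr3-1::mCit and 1.07 ± 0.27 in control seedlings (q = 0.00309 for both in the authors' deposited table) were nearly equal. PHOT2, the related receptor, was not called and had 46.1 and 71.1 FPKM in CER6pro>>axr3-1::mCit seedlings in shade and in W and 50.3 and 75.9 FPKM in control seedlings in shade and in W, lower in shade in each. It had the lowest shade fold of the list in CER6pro>>axr3-1::mCit seedlings, -0.63 ± 0.27, and ALMT12, an anion channel for closure, had the lowest in control seedlings, -0.72 ± 0.26.

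ABCB14, an ABC transporter that imports malate into guard cells, was higher in CER6pro>>axr3-1::mCit seedlings in each light condition. It had 18.7 and 10.1 FPKM in CER6pro>>axr3-1::mCit seedlings in shade and in W, against 5.60 and 4.40 FPKM in control seedlings in shade and in W. It lay above both pooled control values in both CER6pro>>axr3-1::mCit groups. It rose by 1.21 ± 0.24 in W and by 1.74 ± 0.24 in shade over control (q = 0.00309 for both in the authors' deposited table), the highest of the list each time. Within CER6pro>>axr3-1::mCit seedlings it rose by 0.89 ± 0.24 in shade (q = 0.00793 in the authors' deposited table), whereas the fold in control seedlings was 0.35 ± 0.25. The difference of these folds was 0.54 ± 0.34 and was not called (adjusted p = 1.00 in the z test on the authors' statistics).

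GC1, known for its guard cell promoter, had the lowest fold of the guard cell list between the genotypes, -1.93 ± 0.35 in W and -0.77 ± 0.34 in shade. It had 53.2 and 37.9 FPKM in CER6pro>>axr3-1::mCit seedlings in shade and in W, against 91.0 and 145 FPKM in control seedlings in shade and in W. Both CER6pro>>axr3-1::mCit values lay below both control values, but the gene was not called (p = 0.00310 and q = 0.0879 in W and q = 0.895 in shade in the authors' deposited table). The SE of GC1 in W would be 1.88 times as large if taken from that p. In the comparisons of both genotype and light the list ran from GC1 at -1.44 ± 0.33 to ABCB14 at 2.09 ± 0.25 in CER6pro>>axr3-1::mCit in shade over control in W, and from PHOT1 at -1.31 ± 0.27 to ABCB14 at 0.86 ± 0.24 in CER6pro>>axr3-1::mCit in W over control in shade. ABCB14 was called in both and PHOT1 in the second (q of 0.00793 or less in the authors' deposited table). Of all tested genes 4.75% and 3.94% were called in these comparisons, and nothing about the list is read from its counts. For CER6pro>>axr3-1::mCit over control in W, 12 of the 23 guard cell genes were below 0 and 11 above, with a median log2 fold of -0.05.

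**Figure D4:**
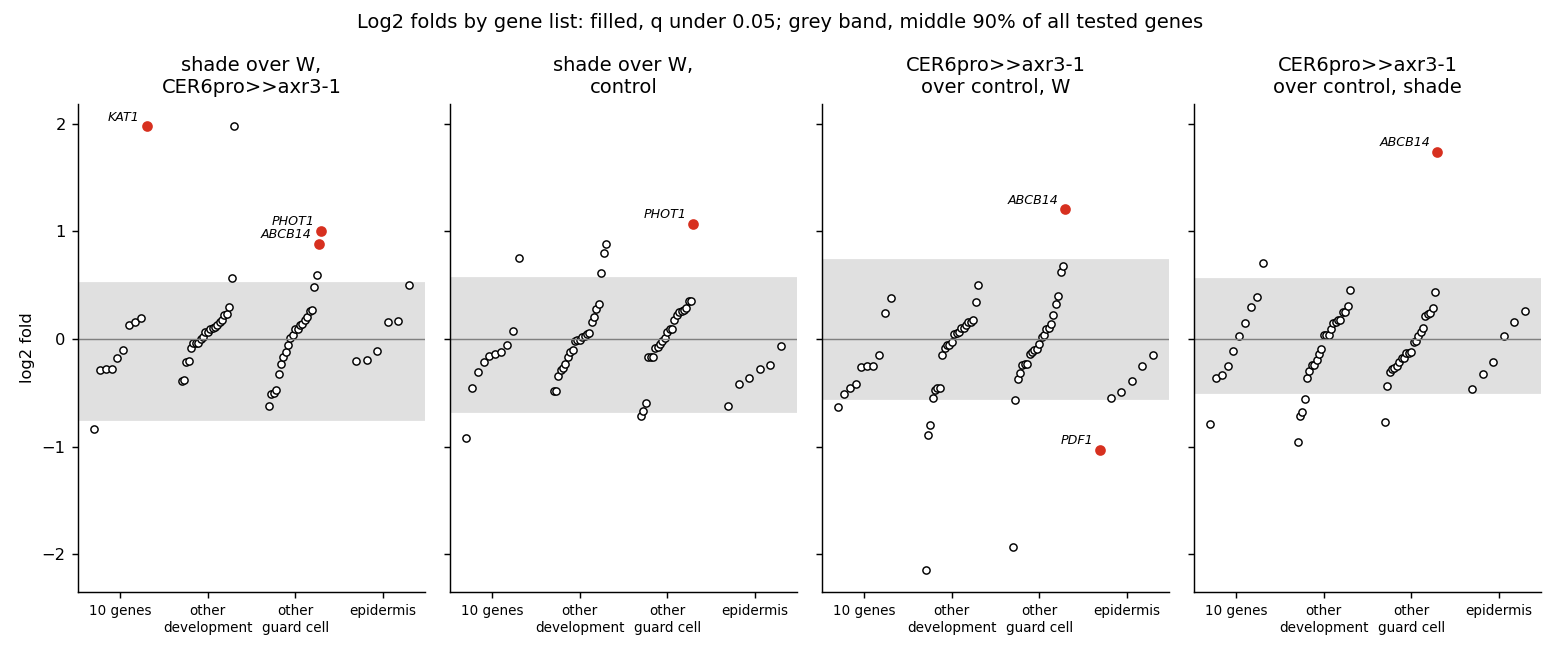
Log2 folds (y axes) of the 10 genes, 23 other development genes, 23 other guard cell genes and 6 epidermal genes in 4 comparisons, sorted by size within each list, with genes called at q under 0.05 filled and named and the middle 90% of all tested genes as a grey band. KAT1 at 1.98, PHOT1 at 1.01 and ABCB14 at 0.89 are the filled points for shade over W in CER6pro>>axr3-1::mCit seedlings, and PDF1 at -1.03 is the filled epidermal gene in W.

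The SEs above come from the authors' statistic, and against the p-values of the authors' deposited table the statistic was 0.931 to 1.41 times the size expected (median 1.11) in the 59 of 60 gene and comparison pairs of the 10 genes whose p is above 5e-05, the smallest in the tables. The remaining pair, KAT1 for shade in CER6pro>>axr3-1::mCit seedlings, has that smallest p, and its ratio is at most 1.56. Over the other development genes the ratio ran from 0.806 to 1.85 (median 0.964). Over the other guard cell genes it ran from 0.0215 to 1.88 (median 0.957). Some SEs and intervals are thus too narrow and others too wide, and the q-values alone decide the calls. With the SE taken from p instead, the difference of the KAT1 shade folds was 1.22 ± 0.61 (adjusted p = 1.00 in the z test, from the p-values of the authors' deposited table).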

How the data were processed

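Polyadenylated RNA of 16 Arabidopsis libraries was sequenced as stranded libraries, per the labels. Per the submitters' processing notes, CASAVA 1.8.2, TopHat2 2.0.9, Bowtie2 2.1.0, Cufflinks and Cuffdiff were used with the TAIR10 build. The authors deposited 6 Arabidopsis tables, each comparing a pair of groups, with 1 FPKM value per group pooled over its libraries. The authors also deposited a score, the Cuffdiff test statistic. The p-value and q-value are those the authors deposited, and the smallest p is 5e-05.

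Here a log2 fold is the ratio of group FPKMs with no pseudocount. Its SE is the fold over the statistic, scaled by a factor (0.558 to 0.564) that brings the statistic to a normal deviate, fitted as a median over genes with p from 0.001 to 0.5. Differences of shade folds were tested with a z test on genes with at least 1 FPKM in a group, with Benjamini-Hochberg adjustment, after a check on simulated data (Python 3.11.15, scipy 1.17.1). The simulated data had the same ratio of statistic to p for every gene, so that check could not show SEs that are too narrow or too wide for some genes. Sequences come from the RefSeq TAIR10.1 assembly. Named were the 10 genes, the called genes, the partners of the 10 and the extremes of each list, and the 3 genes with a symbol nearest in profile to a called member. The genes and lists were chosen with earlier results of these data known. The 12 Brassica rapa libraries were not used here. Alternatives changed the threshold, the adjustment, the filter, the pseudocount, the scaling and the source of p or SE.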

Additional observations from a re-analysis of the deposited data

How the results depend on the processing

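At q under 0.01, KAT1 kept its call for shade in CER6pro>>axr3-1::mCit seedlings (q = 0.00309 in the authors' deposited table), and the count of stomatal genes called was 0 instead of 1 in CER6pro>>axr3-1::mCit in shade against control in W and 0 instead of 1 in CER6pro>>axr3-1::mCit in W against control in shade. At an unadjusted p under 0.05 the count was 2 instead of 0 for shade in control seedlings, 1 instead of 0 for CER6pro>>axr3-1::mCit against control in shade, 2 instead of 1 for CER6pro>>axr3-1::mCit in shade against control in W, and 2 instead of 1 for CER6pro>>axr3-1::mCit in W against control in shade. Adjusting over 1 table alone, the filter on FPKM and p taken from the statistic left all 6 counts of stomatal genes as they were. Over all genes, p from the statistic gave 839 calls instead of 516 for shade in CER6pro>>axr3-1::mCit seedlings, 905 instead of 580 in control seedlings, 777 instead of 442 between the genotypes in W, 476 instead of 255 in shade, and 1632 instead of 970 and 1320 instead of 806 in the comparisons of both. At q under 0.01 the counts over all genes were 322, 404, 266, 157, 622 and 544, and at an unadjusted p under 0.05 they were 1666, 1741, 1657, 1006, 2725 and 2381, in the same order. Of the 60 log2 folds, 0 changed sign when the median of all genes was subtracted.

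No paired analysis was possible because the tables hold 1 pooled value per group, and for that reason no result without each replicate in turn is given. Using the deposited fold column was not run, as some of its cells hold spreadsheet errors. Depth per library is unknown, so no precision from depth can be given.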

Other observations

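Markers of other tissues of the whole seedling were read beside the stomatal genes. The vascular and root genes and 2 of the 3 mesophyll genes were above 0 in all 4 groups. RBCS1A, the small subunit of Rubisco, had 19472 and 20077 FPKM in CER6pro>>axr3-1::mCit seedlings in shade and in W, against 15647 and 18210 FPKM in control seedlings in shade and in W. Of the trichome and root hair genes GL1, GL2, GL3 and TTG1, 3 of 4 were below control in CER6pro>>axr3-1::mCit seedlings in W (median log2 fold -0.51) and 2 of 4 in shade (median -0.06), and 0 were called. The vascular genes SUC2, APL and ATHB8 had a median of -0.03 in W and 0.10 in shade for the same contrast, and the root genes SCR, SHR and PLT1 -0.04 and 0.06, with 0 called in either list. The mesophyll genes RBCS1A and CA1 had a median of 0.12 in W and 0.30 in shade, with 0 called. The third mesophyll gene, LHCB1.3, is listed at 0 in 3 of the 4 groups and at 12165 FPKM in control seedlings in W, and was not tested by the authors, so its values were not read as expression.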
